A study of Mus musculus with 4 samples.

Results

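Sialyltransferases are the Golgi enzymes that put sialic acid on the ends of glycans, and 10 of their genes, St3gal1 to St3gal6, St6gal1, St6galnac2, St6galnac4 and St6galnac6, were read in 4 sorted mouse CD4+ T cell populations. These 10, of 18193 genes with a probe set, were selected by family after 2 of them, St6galnac2 and St3gal6, had been seen to read far lower in both Foxp3+ arrays. The annotation maps 22 probe sets to these 10 genes alone, and 16 of the 22 passed the filter on dim probe sets, at least 1 for each gene. The other 10 mouse sialyltransferases are given after them, and 4 of those passed the filter.

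Sorting gave 2 Foxp3+ populations, CD25hi and CD25lo, and 2 Foxp3- populations, CD25+ and CD25-, each read on 1 Affymetrix Mouse Genome 430 2.0 array. Foxp3 is the transcription factor of regulatory T cells, and CD25 is the alpha chain of the receptor for interleukin 2. All cells came from males of a Foxp3-GFP knock-in, B6/129 F2 in background and aged 5 to 8 weeks, whose spleen and lymph node cells were combined from 25 animals. Cells bearing CD8, B220, CD11b, NK1.1 or DX5 were depleted, and CD4+ cells were sorted by green fluorescent protein (GFP), which reports Foxp3, and by CD25. The controls carry the same knock-in allele, and the 4 arrays share 1 pool of mice. No group had a replicate, so differences are given by size, without a test.

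Vertebrate sialyltransferases are named for the bond they make. The ST3Gal enzymes add sialic acid to the third carbon of galactose, ST6Gal enzymes to the sixth carbon of galactose, and ST6GalNAc enzymes to the sixth carbon of N-acetylgalactosamine, the first sugar of mucin-type O-glycans. The ST8Sia enzymes extend one sialic acid with another. In lymphocytes the products include ligands of the selectins, which slow cells on vessel walls, ligands of the inhibitory Siglec receptors such as CD22, and gangliosides of the plasma membrane. Sialic acid also masks galactose from galectins.

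The sort gene followed the Foxp3 labels. Foxp3 had an intensity of 1308 (CD25hi) and 1117 (CD25lo) in the sorted positive cells, against 16.8 (CD25+) and 17.6 (CD25-) in the negative ones. Il2ra, the CD25 gene, had 1562 (CD25hi) and 288 (CD25lo) against 283 (CD25+) and 22.3 (CD25-), with CD25lo Foxp3+ and CD25+ Foxp3- cells side by side in the middle. The T cell genes Cd3d, Cd3e, Cd3g, Cd4, Cd5 and Cd2 were above the filter in every array. The median intensity of the arrays lay between 15.03 and 15.63. A reading under 10.1, the 40th percentile of all values, was set to that floor, and a probe set counted as measured when its highest array reached 32.5, the 60th percentile. That left 9622 measured genes. A gene was read from its measured probe set with the highest mean, and levels of different genes cannot be compared on these arrays.

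The spread across the 4 populations differed widely among the 10 genes. The highest array exceeded the lowest by 14.3-fold for St6galnac2 and by 8.49-fold for St3gal6, ranges wider than those of 99.1% and 97.7% of measured genes. St6galnac4 and St6galnac6 spanned 2.95-fold and 2.62-fold. The remaining 6 genes spanned between 1.55-fold (St3gal1) and 2.14-fold (St3gal2), ranges wider than those of 40.4% and 71.9% of measured genes. In all, 6 of the 10 spanned at least 2-fold, as did 32.6% of measured genes. St6galnac2 and St3gal6 are among the 6, and their Foxp3 difference chose the family, so nothing is read from this count. The population that read highest was not the same from gene to gene. The CD25hi Foxp3+ array was highest for St3gal2 and St3gal4, CD25lo Foxp3+ for St3gal5 and St6gal1, CD25+ Foxp3- for St3gal3, St6galnac2, St6galnac4 and St6galnac6, and CD25- Foxp3- for St3gal1 and St3gal6.

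**Figure D1:**
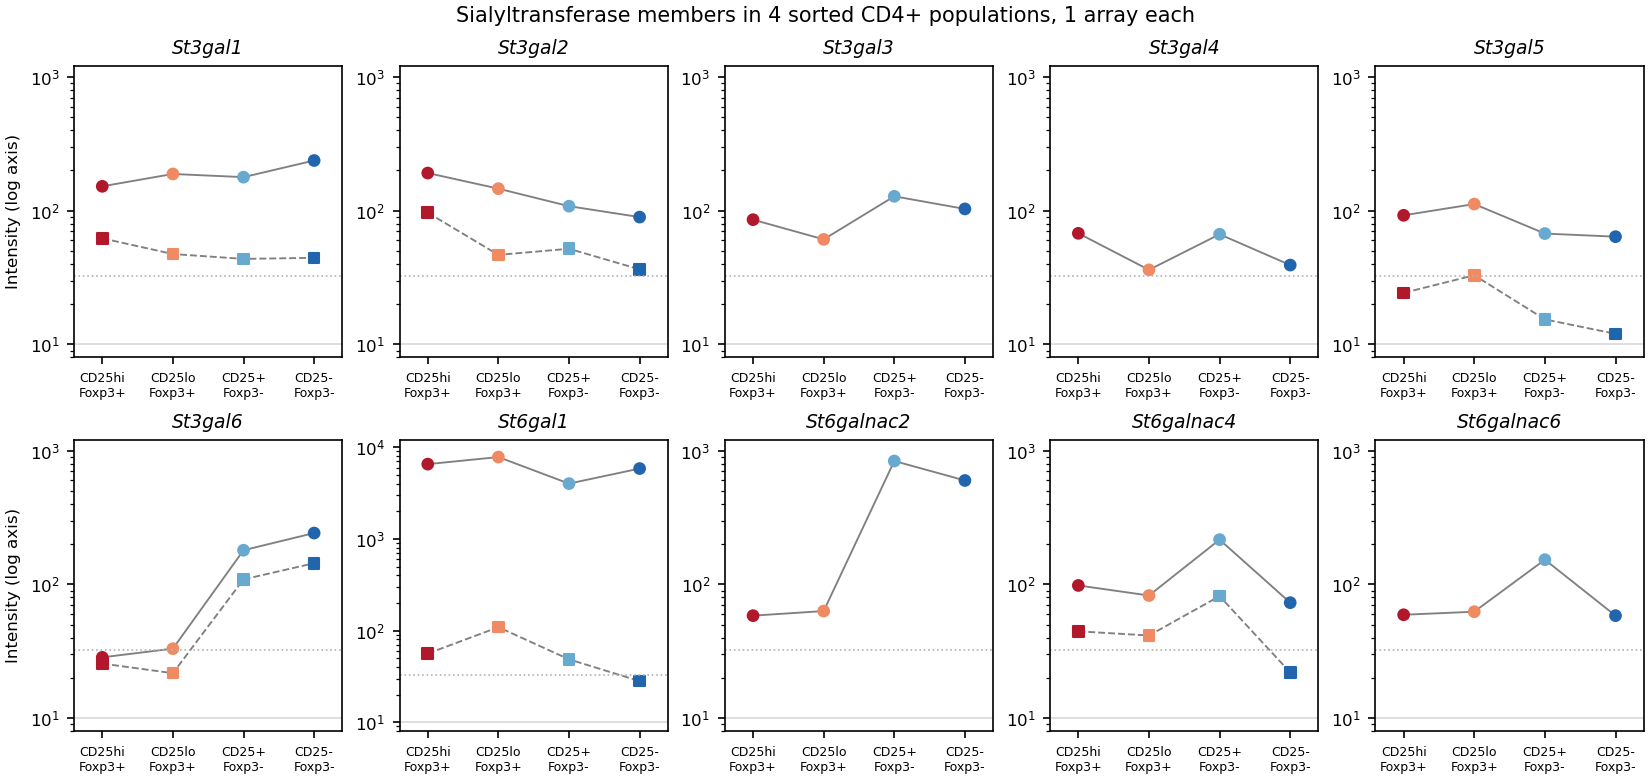
Intensity (log axis) of the 10 sialyltransferase genes in the 4 sorted populations, 1 array each, 1 panel per gene. Each line is a probe set past the filter, solid where it stands for the gene and dashed for the others; the dotted line is the filter at 32.5 and the pale line the floor at 10.1, and the St6gal1 axis runs higher than the others. St6galnac2 and both St3gal6 probe sets sit low in the Foxp3+ arrays, and St6galnac4 and St6galnac6 peak in CD25+ Foxp3- cells.

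St6galnac2, which adds sialic acid to the N-acetylgalactosamine of O-glycans on proteins, had the widest range of the 10. Its intensity among Foxp3+ cells was 58.4 (CD25hi) and 63.2 (CD25lo), against 836 (CD25+) and 598 (CD25-) among Foxp3- cells. The Foxp3+ and Foxp3- arrays did not overlap, and the lower Foxp3- array lay 9.46-fold above the higher Foxp3+ array. This difference led to the choice of the family and is given as a description. Within each Foxp3 state the arrays lay close together. CD25hi over CD25lo among Foxp3+ cells was 0.923-fold, and CD25+ over CD25- among Foxp3- cells was 1.40-fold. All 4 arrays were above the filter. A further probe set of the gene was under the floor in every array, between 4.95 and 5.24, so the pattern rests on 1 probe set.

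St3gal6, which caps lactosamine chains with sialic acid and takes part in making selectin ligands, showed the same split. Among Foxp3+ cells it read 28.5 (CD25hi) and 33.1 (CD25lo), against 180 (CD25+) and 242 (CD25-) among Foxp3- cells, a gap of 5.43-fold between the pairs. The Foxp3+ values were beside the filter of 32.5, so the true size of the gap is uncertain, and the gene was measured mainly through the Foxp3- arrays. A separate probe set gave 25.6 (CD25hi) and 21.7 (CD25lo) for the Foxp3+ pair, against 109 (CD25+) and 144 (CD25-) for the Foxp3- pair, a gap of 4.24-fold. That probe set carries the suffix for sequence shared between transcripts, and it reached the filter in the Foxp3- arrays alone. The other 3 probe sets of St3gal6 stayed under the filter everywhere. One of these, with 9.54 and 9.24 for the Foxp3+ pair against 14.5 and 16.9 for the Foxp3- pair, had the same order near the floor. Another was nearly level, at 16.7 and 16.8 against 16.7 and 18.5, and the last was under the floor in every array. CD25+ over CD25- among Foxp3- cells was 0.743-fold, in the opposite direction to St6galnac2.

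The St3gal6 gene has a pair of annotated start windows in RefSeq (GRCm38.p6), both on the minus strand. They are shown as those of a gene with the Foxp3 split, and St6galnac2 had no window. Each window runs from 250 bases before to 50 bases after the start. Capitals mark matches, on either strand, to short binding motifs. The letters searched were TGTTTAC for forkhead factors, TGTGGT for the RUNX family, AGATAA for the GATA family, TGGAAA for the core of an NFAT site, CCGGAA for the ETS family, GGGCGG for the GC box and TGACGTCA for the cyclic AMP element.
St3gal6 upstream start, chr16:58524204-58524503: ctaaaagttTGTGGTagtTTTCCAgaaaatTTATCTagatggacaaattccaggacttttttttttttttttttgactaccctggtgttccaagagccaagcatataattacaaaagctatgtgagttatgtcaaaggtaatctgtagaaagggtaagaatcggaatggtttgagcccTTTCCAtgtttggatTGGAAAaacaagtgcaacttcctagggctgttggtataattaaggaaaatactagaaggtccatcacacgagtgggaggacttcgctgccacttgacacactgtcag
St3gal6 downstream start, chr16:58523377-58523676: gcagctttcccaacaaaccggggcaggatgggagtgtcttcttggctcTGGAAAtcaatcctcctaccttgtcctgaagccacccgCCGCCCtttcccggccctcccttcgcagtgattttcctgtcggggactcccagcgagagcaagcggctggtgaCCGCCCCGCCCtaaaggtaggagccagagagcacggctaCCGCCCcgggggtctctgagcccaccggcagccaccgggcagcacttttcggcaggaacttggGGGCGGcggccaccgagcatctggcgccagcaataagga
The upstream window held 3 NFAT core matches, 1 RUNX match and 1 GATA match, with 38.7% G or C. The downstream window held 5 GC box matches, a pair of which share 1 base, and 1 NFAT core match, with 64.7% G or C against a median of 52.7% over all windows. Among 32851 windows of the same length, 21.4% held the NFAT core, 16.8% the RUNX, 11.2% the GATA and 35.7% the GC box letters. The forkhead letters are in 3.65% of windows, the ETS letters in 14.9% and the cyclic AMP element in 1.79%, and neither of these windows holds any of the 3. The arrays do not tell which start is used. Of the 10 genes, 7 had a window in the table, and a match is only a run of letters.

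By the distance between log2 profiles centred on their own mean, the measured genes nearest to St3gal6 were Sema4a (0.227), Fasl (0.491), Aqp1 (0.530), Iglv1 (0.534) and Klrd1 (0.559). Those nearest to St6galnac2 were Il4 (0.510), Crtam (0.565), Epas1 (0.723), Fasl (0.728) and St3gal6 (1.01). Sema4a, a semaphorin, read 51.0 (CD25hi) and 69.6 (CD25lo) among Foxp3+ cells, against 317 (CD25+) and 497 (CD25-) among Foxp3- cells. Fasl, the death ligand, stood near both. Few profiles lay close: 2 genes were within 0.5 of St3gal6 and 0 within 0.5 of St6galnac2, while St3gal3 had 766 and St3gal2 had 300 such genes. The profiles were centred but not scaled, so a gene with a wide range tends to have fewer near it. The Foxp3 difference that chose the family thus enters these counts and the nearness of St3gal6 to St6galnac2, and nothing is read from them. These distances are over 4 arrays and say nothing of shared control.

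Some markers of other cell types had the same split, in which 1.93% of measured genes had a 1.5-fold gap downward with Foxp3. The summed intensity of 9 measured markers of CD8 T and NK cells was 459 (CD25hi) and 415 (CD25lo) among Foxp3+ cells, against 1407 (CD25+) and 1890 (CD25-) among Foxp3- cells, and 7 of the 9 had a 1.5-fold gap in this direction. Klrd1, listed above among the profiles nearest to St3gal6, is one of the 7. Of the 9, Ncr1 and Klrk1 were at the floor in both Foxp3+ arrays. For 3 red cell markers the sums were 58 and 127 against 352 and 622, with all 3 lower. The 5 measured B cell markers summed to 156 and 228 against 302 and 348, with 2 lower; Cd22 overlapped and Cd79b ran the other way, at 97.2 and 118 against 58.4 and 69.2, while Cd79a, Pax5, Cr2, Fcer2a and Ebf1 passed the filter in no array. The 7 measured myeloid markers summed to 1124 and 1375 against 1489 and 1683, with 2 lower and Lyz2, Csf1r and Fcer1g overlapping. Cst3, the largest part of each of these sums, ran the other way, at 944 and 939 against 755 and 907. Itgam, Itgax, Cd14 and Siglech of the myeloid list, and Hba-a1 of the red cell list, passed the filter in no array. In a bulk sample, fewer cells of a type and less RNA per cell cannot be told apart. The part of such cells in the St6galnac2 and St3gal6 readings was not tested.

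T cell state genes followed the split in part. Of 7 naive T cell genes, Dapl1 and Igfbp4 were lower with Foxp3 by at least 1.5-fold and 0 were higher, with sums of 11755 (CD25hi) and 7728 (CD25lo) against 12559 (CD25+) and 34475 (CD25-). The naive genes Ccr7, Lef1, Klf2 and S1pr1 overlapped between the pairs, and the sum stood apart in the CD25- Foxp3- array. Of 8 activated and memory genes, S100a6, Anxa2, Lgals1, Prdm1 and Il2rb were higher, 5 in all, with sums of 19780 and 40731 against 14455 and 7789, where 2.80% of measured genes had such a gap upward. Their part in the sialyltransferase readings was not tested either. Each sum follows mostly its brightest genes. Igfbp4 gave 13217 of the naive sum in CD25- Foxp3- cells. Lgals1 gave 13474 and S100a4 gave 9154 of the activated and memory sum in CD25lo Foxp3+ cells. Dapl1 stood at 163 and 159 with Foxp3, against 639 (CD25+) and 3909 (CD25-) without it. Il7r, another naive gene, stood at 3565 and 3465 against 5075 and 6659, a gap of 1.42-fold, under the 1.5-fold rule.

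St6galnac4 and St6galnac6 formed a further pattern, high in CD25+ Foxp3- cells alone. St6galnac4 adds the second sialic acid to sialylated O-glycans, and St6galnac6 makes alpha-series gangliosides. In CD25+ Foxp3- cells St6galnac4 read 216, against 98.2 (CD25hi) and 82.6 (CD25lo) in the Foxp3+ arrays and 73.0 in the CD25- Foxp3- array. Its other probe set gave the same top, 81.7, against 44.6, 41.5 and 22.0 in the same order. St6galnac6, on its 1 probe set, read 153 in CD25+ Foxp3- cells, against 59.3, 62.5 and 58.4. Its other 3 arrays all lay between 58.4 and 62.5. CD25+ over CD25- among Foxp3- cells was 2.95-fold for St6galnac4, 3.72-fold by its other probe set, and 2.62-fold for St6galnac6. These 2 were the only ones of the 10 to exceed each other array by 1.5-fold in CD25+ Foxp3- cells, where 8.39% of measured genes did so.

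Several markers of other cells and states also differed between the Foxp3- populations, where 12.1% of measured genes were at least 2-fold higher with CD25 and 6.43% lower. Among activated and memory genes, CD25+ cells exceeded CD25- cells by at least 2-fold for 4 of 8 and were lower for 0, with sums of 14455 and 7789. Among naive genes 0 of 7 were higher and 5 lower, with sums of 12559 and 34475. The CD8 T and NK markers gave 2 of 9 higher and 3 lower, the myeloid markers 1 of 7 higher and 3 lower, and the B cell markers 2 of 5 higher and 1 lower. The 3 red cell markers gave 0 higher and 2 lower. Of 6 regulatory T cell genes 4 were higher, Il2ra, Ctla4, Ikzf2 and Nrp1, and 0 lower. Among these 6, Il2ra and Foxp3 follow from the sort by CD25 and GFP, so nothing is read from them. Fcer1g read 294 in CD25+ Foxp3- cells against 15.5, 21.9 and 21.5, and Eomes read 411 against 106 in CD25- Foxp3- cells. Other markers of these lists ran the other way. Klrd1 read 192 in CD25+ against 422 in CD25- Foxp3- cells, and Csf1r read 147 against 305. Prf1, Gzma, Lyz2 and S100a8 were also at least 2-fold lower in CD25+ Foxp3- cells. The part of such cells and states in the St6galnac4 and St6galnac6 readings was not tested.

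The pair are neighbours on chromosome 2, with no protein-coding gene between them in the RefSeq order, and the start window of St6galnac6 overlaps the annotated St6galnac4 gene by 238 bases. St6galnac6 stood 42nd of the measured genes by profile distance from St6galnac4 (0.304). The next measured genes on either side ran opposite ways: Dpm2 was lowest there, with 329 in CD25+ Foxp3- cells against 499, 451 and 453, and Eng was highest there, with 91.8 against 60.5, 38.5 and 37.3. The genes Pip5kl1 and Ak1, which lie closer, did not pass the filter. Nearest in profile to St6galnac4 were Gspt1, Tipin and Snrpa1, and nearest to St6galnac6 were Snx8, Enoph1 and Hus1. The start window of St6galnac4 (plus strand, RefSeq, GRCm38.p6) is shown as that of the upstream gene of the pair, with motif matches in capitals as above.
St6galnac4 start, chr2:32586828-32587127: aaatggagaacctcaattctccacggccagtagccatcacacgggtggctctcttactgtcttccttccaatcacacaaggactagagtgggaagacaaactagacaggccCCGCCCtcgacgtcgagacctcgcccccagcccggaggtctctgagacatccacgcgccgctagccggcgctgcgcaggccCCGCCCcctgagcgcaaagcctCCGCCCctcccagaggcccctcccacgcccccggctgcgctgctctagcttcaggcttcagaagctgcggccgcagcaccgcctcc
All 3 matches are to the GC box, and 65.7% of its bases are G or C. The St6galnac6 window held 1 match to the forkhead letters and 0 to the others.

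St3gal1 and St3gal2 both cap the core galactose of O-glycans. Among Foxp3+ cells St3gal1 read 152 (CD25hi) and 188 (CD25lo), against 178 (CD25+) and 237 (CD25-) among Foxp3- cells, so the Foxp3+ and Foxp3- arrays overlapped. Its other probe set was highest where the first was lowest, at 62.1 in CD25hi Foxp3+ cells against 47.4, 43.6 and 44.4, so the direction for St3gal1 is not settled. St3gal2 read 191 (CD25hi) and 146 (CD25lo) with Foxp3, against 108 (CD25+) and 89.5 (CD25-) without it, with no overlap and a gap of 1.35-fold, under the 1.5-fold rule. Its second probe set gave 96.6 and 46.7 against 51.9 and 36.4, with overlap. In both probe sets CD25hi Foxp3+ exceeded CD25- Foxp3- cells, by 2.14-fold and 2.65-fold. The profiles nearest to St3gal2 were those of Gse1 (0.0957), Myo1c (0.119) and Calcoco1 (0.135).

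St3gal3 and St3gal4 act, like St3gal6, on lactosamine chains, and St3gal4 is known in mice for selectin ligands of leukocytes. St3gal4 was the gene of the 10 that separated the CD25hi and CD25+ arrays from the CD25lo and CD25- arrays. Its higher pair was 67.7 (CD25hi Foxp3+) and 66.6 (CD25+ Foxp3-), against 36.1 (CD25lo Foxp3+) and 39.2 (CD25- Foxp3-), a gap of 1.70-fold between these pairs. This pairing follows the sort labels and not the level of Il2ra, which was 288 in CD25lo Foxp3+ and 283 in CD25+ Foxp3- cells. Of the 10 genes, 1 had such a gap upward, against 1.10% of measured genes, and 0 had one downward, against 0.187%. St3gal4 has 1 probe set, and its lower readings were just above the filter. St3gal3 read 85.6 (CD25hi) and 61.0 (CD25lo) with Foxp3, against 128 (CD25+) and 103 (CD25-) without it, a gap of 1.21-fold downward. Brix1, Dtwd1 and Snrpd3 were nearest to St3gal3, all within 0.0846. St3gal3 and St3gal4 were both lowest in CD25lo Foxp3+ cells.

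St3gal5, which makes GM3, the first ganglioside, read 92.3 (CD25hi) and 112 (CD25lo) among Foxp3+ cells, against 67.4 (CD25+) and 63.9 (CD25-) among Foxp3- cells. The pairs did not overlap, with a gap of 1.37-fold, and the other measured probe set had a gap of 1.58-fold in the same direction, at 24.3 and 32.9 against 15.4 and 12.0. That second set reached the filter in 1 array. St6gal1, which makes the ligand of CD22 on N-glycans, read 6546 (CD25hi) and 7820 (CD25lo) among Foxp3+ cells, against 4014 (CD25+) and 5858 (CD25-) among Foxp3- cells. Its pairs were 1.12-fold apart. The other St6gal1 probe set read 56.2 and 109 against 48.6 and 28.1. The probe sets disagreed on CD25 among Foxp3- cells, where CD25+ over CD25- was 0.685-fold by the one that stands for the gene and 1.73-fold by the other. They shared the top population, CD25lo Foxp3+.

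Set against the Foxp3 labels, 2 of the 10 genes had a 1.5-fold gap downward (St6galnac2 and St3gal6) and 0 had one upward. The shares among measured genes were 1.93% downward and 2.80% upward, and since this contrast chose the family nothing is read from the count. The pairing of arrays that follows neither marker separated 0 of the 10 and 3.06% of measured genes. Over the 10, the median log2 difference between Foxp3+ and Foxp3- arrays was -0.38, against -0.01 over all measured genes, with single genes between -3.54 and 0.77.

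The comparisons within a Foxp3 state did not enter the choice of the family. Between CD25hi and CD25lo Foxp3+ cells 0 of the 10 genes were at least 2-fold apart, where 5.72% of measured genes were, and the log2 differences ran between -0.30 (St3gal1) and 0.91 (St3gal4). Between CD25+ and CD25- Foxp3- cells 2 of the 10, St6galnac4 and St6galnac6, were at least 2-fold higher, against 12.1% of measured genes, and 0 were 2-fold lower, against 6.43%. The median absolute log2 difference of the 10 was 0.27 in the first comparison and 0.46 in the second, the same to 2 decimals as over all measured genes. St6galnac2 and St3gal6 were within 1.40-fold in both comparisons. Opposite differences by CD25 of at least 1.5-fold in the 2 Foxp3 states were seen for 0 of the 10 and for 6.37% of measured genes. These counts hold for the 10 genes and not for the whole family. Of the 4 other measured sialyltransferases, 3 were at least 2-fold lower with CD25 among Foxp3- cells. Between the Foxp3+ arrays 1 of the 4, St8sia1, was at least 2-fold higher in CD25hi cells.

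**Figure D2:**
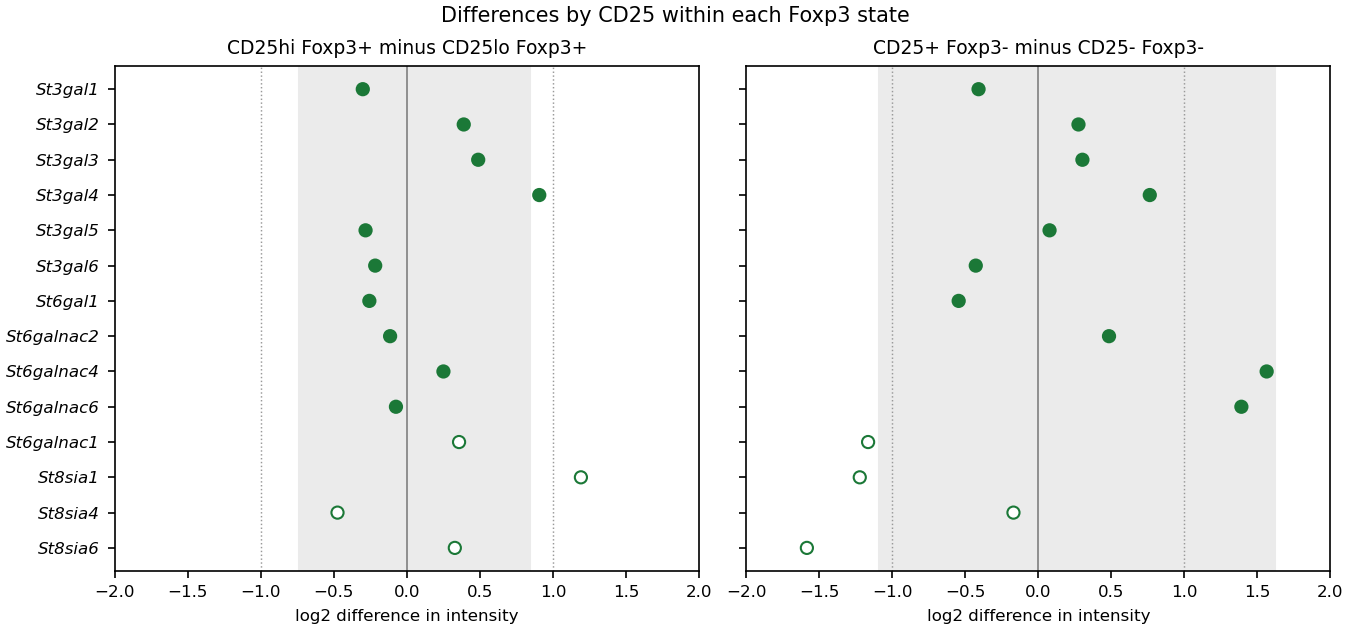
Log2 difference in intensity by CD25 among Foxp3+ cells (left) and among Foxp3- cells (right) for the 14 measured sialyltransferases, filled for the 10 genes described above and open for the other 4. The grey band holds the 5th to 95th percentile of all measured genes and dotted lines mark 2-fold. St6galnac4 and St6galnac6 pass 2-fold on the right only, upward, and St8sia6 and St6galnac1 on the right only, downward. St8sia1 passes it upward on the left and downward on the right.

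Comparisons across both markers repeat the arrays above and share them with each other. CD25hi Foxp3+ cells were at least 2-fold above CD25- Foxp3- cells for 1 of the 10 genes, St3gal2 (7.09% of measured genes), and below for St3gal6 and St6galnac2 (3.74%). CD25lo Foxp3+ cells were above for 0 (9.09%) and below for the same 2 (6.88%). Against CD25+ Foxp3- cells, CD25hi Foxp3+ cells were at least 2-fold lower for 4 of the 10, St3gal6, St6galnac2, St6galnac4 and St6galnac6 (6.84%). CD25lo Foxp3+ cells were 2-fold lower for these 4 and St3gal3 (9.04%). Neither Foxp3+ array exceeded CD25+ Foxp3- cells by 2-fold for any of the 10 (background 4.82% for CD25hi and 5.17% for CD25lo), and these counts include the contrast that chose the family.

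Of the other 10 sialyltransferases, St6gal2, St6galnac3, St6galnac5, St8sia2, St8sia3 and St8sia5 passed the filter in no array, and St8sia1, St8sia4, St8sia6 and St6galnac1 were measured. St8sia6, which adds disialic acid to O-glycans, read 1846 (CD25hi) and 1471 (CD25lo) with Foxp3, against 1142 (CD25+) and 3423 (CD25-) without it. Its 3 probe sets agreed: CD25- Foxp3- was highest and CD25+ Foxp3- lowest in each, with CD25+ cells lower by 3.0-fold to 3.3-fold. St8sia1, which makes the ganglioside GD3 from the GM3 that St3gal5 supplies, read 285 (CD25hi) and 125 (CD25lo) with Foxp3, against 282 (CD25+) and 659 (CD25-) without it. In each of its 3 probe sets CD25lo Foxp3+ cells were lowest and CD25- Foxp3- cells highest, while St3gal5 was highest in CD25lo Foxp3+ and lowest in CD25- Foxp3- cells. The other St8sia1 sets had a low Foxp3+ pair without overlap: one read 97.6 and 54.2 with Foxp3, against 162 and 255, a gap of 1.66-fold, and the other 28.7 and 21.4, against 45.8 and 47.3, a gap of 1.60-fold. The set that stands for the gene overlapped, so the St8sia1 probe sets disagree on the Foxp3 rule. St8sia4, which makes polysialic acid, read 3561 (CD25hi) and 4949 (CD25lo) with Foxp3, against 2632 (CD25+) and 2962 (CD25-) without it. Its other probe set read 103 and 159 with Foxp3, against 68.7 (CD25+) and 123 (CD25-), so there the pairs overlapped. St6galnac1, the neighbour of St6galnac2 on chromosome 11, had probe sets that disagreed: one read 60.7 and 47.4 with Foxp3, against 49.4 (CD25+) and 111 (CD25-), and the other read 23.8 and 62.2, against 126 (CD25+) and 49.7 (CD25-). Neither showed the low Foxp3+ pair of St6galnac2.

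**Figure D3:**
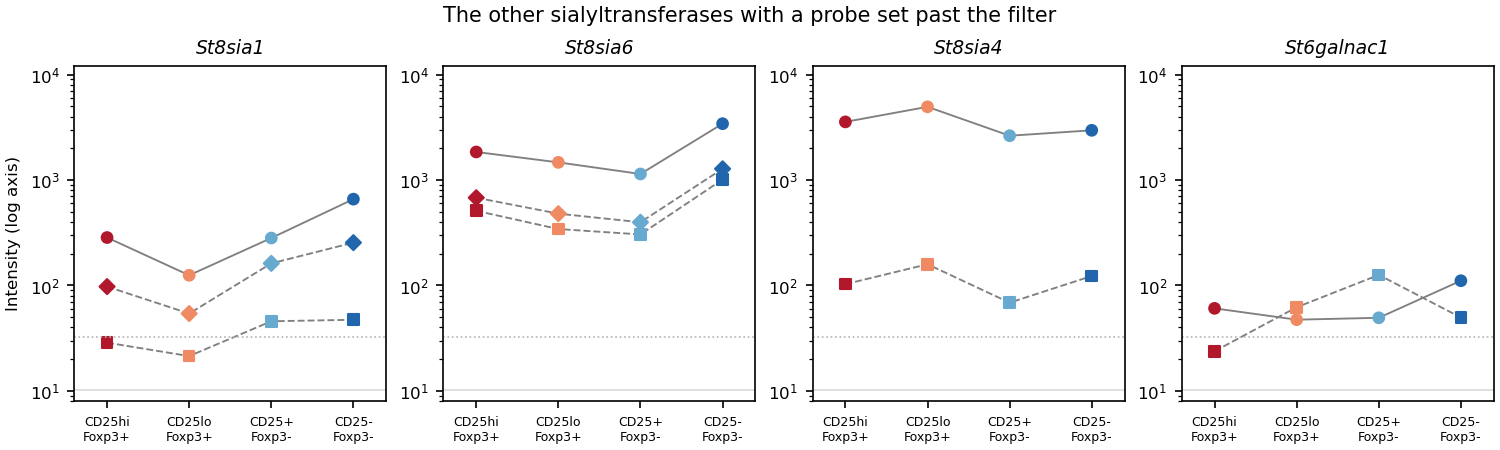
Intensity (log axis) of the 4 other sialyltransferases with a probe set past the filter, in the same 4 populations, 1 array each. Lines are probe sets, solid where one stands for the gene; all 3 St8sia6 sets are highest in CD25- Foxp3- and lowest in CD25+ Foxp3- cells, and the 2 St6galnac1 sets cross.

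Genes that supply, remove or bind sialic acid had few gaps with Foxp3, which 2.80% of measured genes had upward and 1.93% downward. Of 8 measured genes of sialic acid supply, 1 was higher, Renbp, an epimerase of the precursor sugar, at 52.5 and 56.6 with Foxp3 against 26.4 and 16.7 without it, and 0 were lower. The enzymes of the main route, Gne, Nans, Nanp and Cmas, and the transporter Slc35a1 had overlapping pairs. Cmah, which converts the mouse sialic acid to its glycolyl form, read 305 in CD25+ Foxp3- cells, against 981 in CD25- Foxp3- cells, 3.21-fold lower. Of 5 measured sialidase and esterase genes 0 passed in either direction, although the log2 difference with Foxp3 had a median of 0.41. Neu3, the ganglioside sialidase, read 55.4 in CD25+ Foxp3- cells, against 18.2 in CD25- Foxp3- cells.

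The lists of acceptor synthesis gave at most 1 gene each with a gap by Foxp3, beside 2.80% of measured genes upward and 1.93% downward. The 2-fold counts between CD25+ and CD25- Foxp3- cells stand beside 12.1% upward and 6.43% downward. Of 16 measured genes on the list of O-glycan core and extension 1 was higher with Foxp3, B3gnt5, at 190 and 392 against 105 and 93.0, and 0 were lower. B3gnt5 serves mainly glycolipids, so its gap is not one of O-glycan synthesis. Gcnt1, which makes the branched core of O-glycans on activated T cells, read 155 in CD25+ Foxp3- cells, against 22.4 in CD25- Foxp3- cells, a 6.90-fold difference with the lower reading under the filter. Gcnt2, which branches lactosamine, was at the floor in the other 3 arrays and at least 7.14-fold higher in CD25+ Foxp3- cells. Galnt6 and Galnt10, which start O-glycans, were 2.81-fold and 2.74-fold lower there than in CD25- Foxp3- cells. Of 10 N-glycan branching genes 1 was higher with Foxp3, Mgat1, with a gap of 1.51-fold, and 0 were lower. Mgat2, at 2.12-fold higher, and Man2a2, at 2.02-fold lower, differed between CD25+ and CD25- Foxp3- cells. Of 7 ganglioside genes 1 was lower, Ugcg, which makes the first glycolipid, at 416 and 367 against 623 and 803, a gap on the edge of the 1.5-fold rule. B3galt4, which extends gangliosides with galactose, was 2.95-fold lower in CD25+ than CD25- Foxp3- cells.

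Of 5 measured fucose and sulfate genes 0 passed with Foxp3, while Fut4 and Fut7, the fucosyltransferases of selectin ligands, read higher in CD25+ than CD25- Foxp3- cells. The fold of Fut4, 6.89, is against a reading under the filter, and for Fut7 both readings, 29.1 and 12.6, were under it. Fut4 read 96.6 in CD25+ cells, against 14.0 in CD25- Foxp3- cells, with 15.2 and 14.7 in the Foxp3+ pair. Of 13 listed sialic acid receptors, Cd22, which is also on the B cell list, and Selp were measured, each with at least 1 array near the floor. Of 10 measured sialylated surface proteins 1 was lower with Foxp3, Cd24a, also a marker of B cells and red cell precursors, at 119 and 136 against 434 and 471, a gap of 3.20-fold. Selplg, the selectin ligand protein, read 1373 in CD25+ Foxp3- cells, against 3186 in CD25- Foxp3- cells, and Cd44 read 2744 against 1175. Spn (CD43) and Ptprc (CD45), which carry much of the sialic acid of T cells, had pairs that overlapped. No gene of the 8 lists had a 1.5-fold gap between the CD25hi and CD25+ arrays and the other pair. Such a gap was rare among all measured genes, at 1.10% upward and 0.187% downward, so nothing is read from its absence. Between the Foxp3+ populations 5.72% of measured genes were at least 2-fold apart. Of the list genes, CD25hi cells were higher for Selp (3.10-fold), Galnt10 (2.46-fold) and Mgat4a (2.05-fold). They were lower for Cd22 (2.87-fold), Chst2 (2.31-fold) and B3gnt5 (2.07-fold). List medians of the log2 difference with Foxp3 lay between -0.19 and 0.41, against -0.01 over all measured genes.

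**Figure D4:**
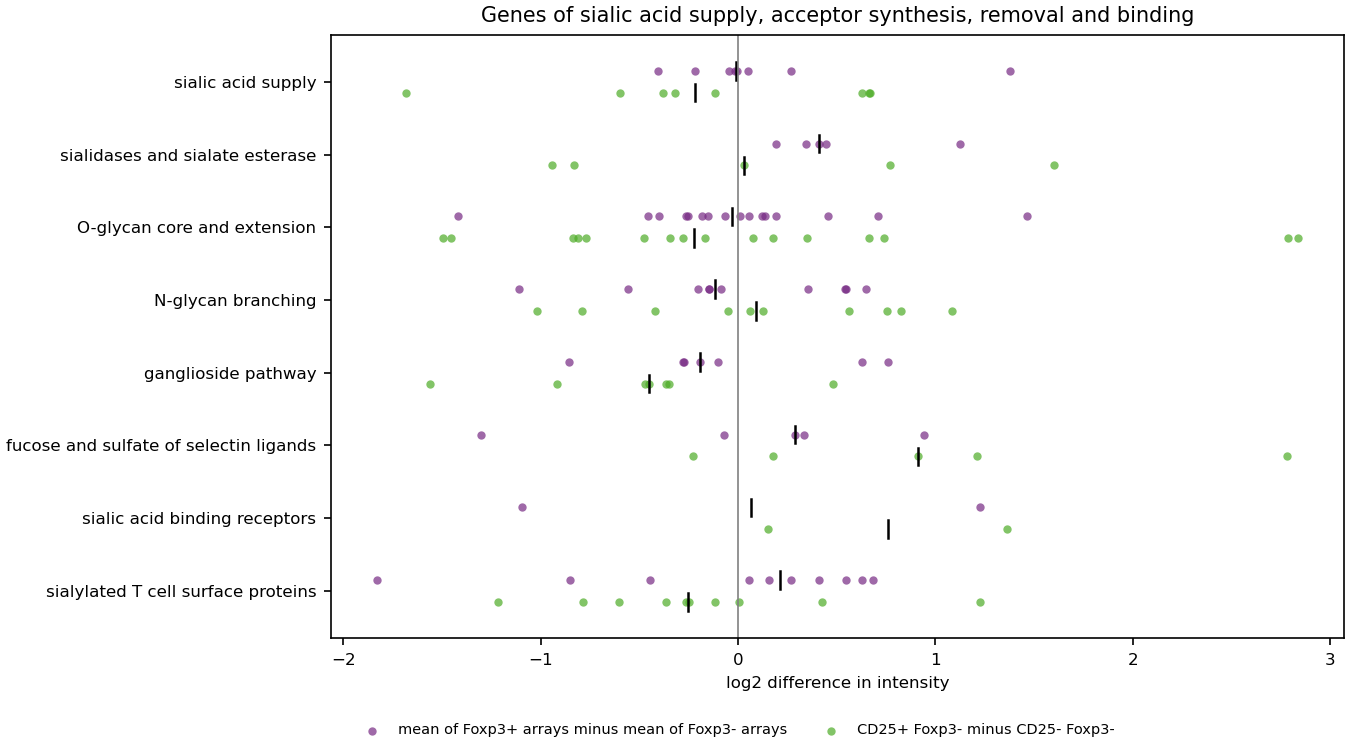
Log2 difference in intensity of measured genes on 8 lists of sialic acid supply, removal, acceptors and receptors. Purple points are the mean of the Foxp3+ arrays minus the mean of the Foxp3- arrays, green points are CD25+ Foxp3- minus CD25- Foxp3- cells, 1 point per gene, and black bars are list medians; the medians lie between -0.45 and 0.91.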

How the data were processed

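Per the labels' protocols, total RNA went through 2 cycles of in vitro amplification and was hybridised to 1-colour arrays. The authors deposited 1 linear intensity per probe set and sample, with the probe summary, background correction and normalization not given in the sources used here. Column medians were within 10% of each other, so the deposited intensity scale was kept and turned to log2. Groups were taken from the sample titles, with 1 array per group, which limits the precision.

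The table holds 45101 probe sets, of which 64 are controls. In the platform's annotation 34945 of the others carry a single gene, 932 several and 9160 none. By Entrez identifier 34741 matched RefSeq GRCm38.p6, which changed 0 symbols. Size rules stood in for tests: a gap of 1.5-fold between pairs of arrays, or 2-fold between 2 arrays. The counts over the 10 genes stand beside the share of 9622 measured genes that meets the same rule, and those over lists and markers are read against the same shares.

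The genes, the lists and the naming rule were chosen with earlier results of these data known. The text names the 20 sialyltransferases, the nearest profiles (5 for St6galnac2 and St3gal6, 3 for others that spanned 2-fold), and up to 4 genes per list and comparison past a rule. Dpm2, Eng, Pip5kl1 and Ak1, list genes that passed no rule, and the marker genes named one by one were chosen after their values were seen. Alternatives were another normalization, floor, filter, probe set rule and size rule. Simulated data were used to check the counting rules. Python 3.11.15, numpy 2.4.6 and pandas 2.3.3 were used.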

Additional observations from a re-analysis of the deposited data

Results flagged for a closer look

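For 8 of 77 measured genes of the sialyltransferase family and its lists, CD25 went with opposite differences of at least 1.5-fold in the 2 Foxp3 states, as it did for 6.37% of measured genes. Each state gives 1 pair of arrays, so the contrast between states was not tested. For St8sia1 the log2 difference was 1.19 in CD25hi over CD25lo Foxp3+ cells and -1.22 in CD25+ over CD25- Foxp3- cells, 2.41 apart. Its other probe sets gave 0.85 and -0.66, and 0.42 and -0.05, in the same order, so the size depends on the probe set. Galnt10 (2.75 apart) and Cd96 (1.38 apart) went the same way as St8sia1, higher with CD25 among Foxp3+ cells and lower among Foxp3- cells. The opposite order was found for Gcnt1 (-3.46), Cd22 (-2.89), Neu3 (-2.30), Chst2 (-2.12) and Mgat4b (-1.41). Of these, Gcnt1, Cd22 and Neu3 had readings under the filter of 32.5 in at least 1 array. None of the 10 genes chosen for the family is among the 8.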

How the results depend on the processing

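The counts over the 10 genes were recomputed under 8 other settings. Quantile normalization, division of each array by its median, no floor, a floor at the 50th percentile, no filter and the mean of the passing probe sets left each count at its value. With a filter at the 70th percentile St3gal4 was no longer measured, so 9 genes were left and the count separated by CD25 was 0. With a gap of 2-fold and a difference of 3-fold the CD25 pairing separated 0 genes, and 0 were apart between CD25+ and CD25- Foxp3- cells, while St6galnac2 and St3gal6 still passed with Foxp3. Changes of floor or filter could not move the difference of a gene that stayed measured. The readings used for the 10 genes lay above both floors, and the probe set used for each gene stayed the same. With these settings included, 206 of 207 differences of single genes moved by less than 0.427 log2 units, the spread of the pairing by neither marker. Of the called ones, 0 changed sign. The exception was St6gal1 in CD25+ minus CD25- Foxp3- cells, at 0.12 with the mean of its probe sets against -0.55 as reported. The St6galnac2 difference with Foxp3 stayed between -3.54 and -3.51 and that of St3gal6 between -2.76 and -2.58. No paired analysis was possible because each group has 1 array. Readings beside the filter, as for St3gal6 in Foxp3+ cells, leave the size of a fold uncertain.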
